A study of Mus musculus with 18 samples.

Results

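Gene expression after detachment of C2C12 myoblasts with a cold-active protease was compared with that after 3 min in trypsin, as 6 of the 18 BRB-seq libraries of the series. C2C12 is an established mouse myoblast line. BRB-seq is bulk RNA sequencing in which cDNA is barcoded by sample and then pooled. The cold-active protease group (3 libraries) was washed in PBS and shaken for 5 min at 4 °C in 200 µL of the protease. The 3 min trypsin group (3 libraries) was washed in PBS and held at 37 °C in 200 µL of 0.25% trypsin. Control cells (3 libraries) met no enzyme and were lysed in the plate and scraped. All groups grew in medium with 20% fetal bovine serum. Enzyme, temperature, time and shaking differed together between both harvests, so their parts cannot be told apart. Libraries are numbered as lots in the labels and are called replicates here. The labels do not say whether lots came from separate cultures. The p-values therefore reflect the variation among these libraries alone, and part or all of it may be technical.

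Library totals were 1775288 to 2480690 counts after the cold-active protease, 1490869 to 1778662 after 3 min of trypsin and 1582906 to 2172214 in control. All 19 myoblast markers looked up were detected, with summed levels of 2191 to 2289 CPM (counts scaled to library size) after the cold-active protease and 2344 to 2401 CPM after 3 min of trypsin. Desmin (Des), the muscle intermediate filament, was the most abundant of them. Markers of endothelial cells summed to 6.76 to 11.7 CPM after the cold-active protease and 4.70 to 11.4 CPM after 3 min of trypsin. Markers of blood and immune cells, mostly Cd14, summed to 12.4 to 24.4 CPM after the cold-active protease and 22.2 to 34.9 CPM after 3 min of trypsin. Ly6a and Krt14, listed as markers of fibro-adipogenic and epithelial cells, were also expressed in every group.

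Trypsin and other proteases free adherent cells by cutting the proteins that hold them to the dish and to each other. Loss of adhesion reaches the actin cytoskeleton, and with it the transcription factors Srf, which reads the pool of free actin, and YAP, which is held in the cytoplasm when cells round up. Immediate early genes, whose transcription needs no new protein synthesis, can respond within minutes, and cold slows transcription and RNA decay alike. mRNAs for ribosomal proteins and for most respiratory chain subunits belong to the shortest and most abundant coding transcripts of a cell.

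Of 10075 genes tested, 373 (3.7%) differed between both harvests at an adjusted p under 0.05. All adjusted p-values are from edgeR's quasi-likelihood test with Benjamini-Hochberg adjustment over all genes tested, and genes under 0.05 are referred to as called. After the cold-active protease 286 genes (2.84%) were higher and 87 (0.864%) lower than after 3 min of trypsin. The differences were mostly small. The median log2 fold change was 0.60 for the genes called higher and -0.50 for those called lower, with 11 and 8 of them at 1 or more in size. In 1 of the 11, the pseudogene Gm14633, counts were 10, 7 and 5 after the cold-active protease and 0 in each 3 min library, so it was at least 1.89-fold higher against a floor of 3 counts per library. The libraries of both groups did not overlap for 282 of the 286 and 81 of the 87, against 1694 (16.8%) of all genes tested. The libraries of both groups were also set against the same control libraries. The cold-active protease differed from control in 67 genes (0.665%), with 20 higher (0.199%) and 47 lower (0.467%). After 3 min of trypsin 399 genes (3.96%) differed from control, with 102 higher (1.01%) and 297 lower (2.95%). Genes called higher had a median log2 fold change of 0.04 for the cold-active protease against control and of -0.53 for 3 min of trypsin against control. For genes called lower these medians were -0.14 and 0.32. These 3 comparisons share libraries, so their values stand side by side only as a description.

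**Figure D1:**
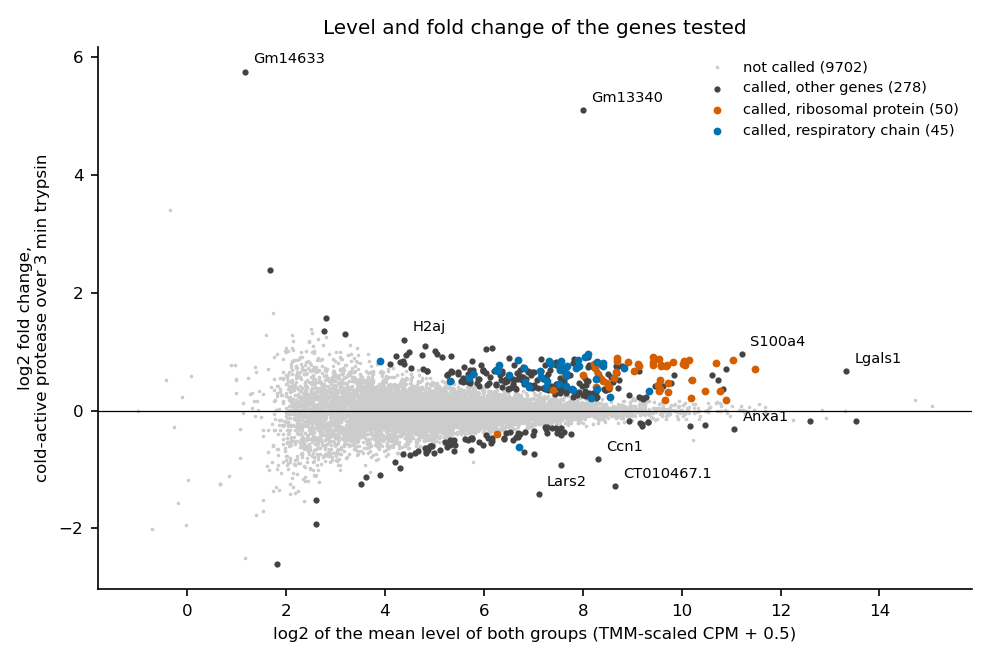
Log2 fold change of the cold-active protease over 3 min of trypsin (vertical axis) against the log2 mean level of both groups (horizontal axis, TMM-scaled CPM plus 0.5) for the 10075 genes tested. Called ribosomal protein genes (50, orange) and called nuclear respiratory chain genes (45, blue) lie almost all above 0, and the pseudogene Gm13340 stands apart at 5.10.

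In the plot of level and fold change the called ribosomal protein and respiratory chain genes form a band above 0 at high levels, while the called genes below 0 are spread over low and high levels. The median level was 185 CPM for the genes called higher, 198 of 286 of them at 100 CPM or more, and 71.6 CPM for those called lower, with 36 of 87 at 100 CPM or more.

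Ribosomal protein mRNAs, which encode the protein parts of the cytosolic ribosome, were the group with the most called members. Of 81 tested, 49 were higher after the cold-active protease and 1 was lower, with a median log2 fold change of 0.40 against -0.01 over all genes tested. The small subunit had 23 of 34 members higher and 1 lower (median 0.50), and the large subunit 26 of 47 higher and 0 lower (median 0.37). They took 6.73% to 6.86% of all counts after the cold-active protease, against 5.37% to 5.40% after 3 min of trypsin and 6.86% to 7.06% in control. Rps12, a small subunit protein, had 2584, 2722 and 2781 CPM after the cold-active protease, against 1413, 1457 and 1601 CPM after 3 min of trypsin. Its groups did not overlap, and the control libraries, at 2551 to 2649 CPM, lay among those of the cold-active protease. The log2 fold change was 0.86 ± 0.05 (SE; edgeR adjusted p = 3.35e-19).

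Rps19, Rps26, Rpl28, Rpl31 and the stalk proteins Rplp1 and Rplp2 were higher by similar amounts, with log2 fold changes of 0.81 to 0.89 and no overlap between groups. Rpl28 had 540, 539 and 528 CPM after the cold-active protease, against 292, 288 and 284 CPM after 3 min of trypsin. Rps16 was higher than after 3 min of trypsin but did not reach control. It had 384, 407 and 451 CPM after the cold-active protease, 291, 306 and 304 CPM after 3 min of trypsin, and 522 to 561 CPM in control. Its log2 fold change was 0.46 ± 0.06 against 3 min of trypsin (edgeR adjusted p = 1.51e-07) and -0.40 for the cold-active protease against control (adjusted p = 1.5e-05). Rps6, the S6 kinase substrate, was the single member called lower, at 65.8, 65.9 and 64.9 CPM after the cold-active protease and 70.7, 101 and 88.5 CPM after 3 min of trypsin (log2 -0.40 ± 0.12, edgeR adjusted p = 0.0495). That call was lost without any 1 of the cold-active protease replicates and without 3 min replicate 2 or 3 (adjusted p = 0.128 to 0.52; log2 -0.26 without 3 min replicate 2), and with RLE size factors (adjusted p = 0.0506). Not all members were called. Rpl3 and Rpl4, which have longer mRNAs, had log2 values of -0.03 and -0.01, and the very short Rps29 and Rpl38 had -0.24 and -0.05, none of them called. Near-identical copies elsewhere in the genome exist for 78 of the 81, so counts of single members are uncertain. In bulk RNA a difference in some cells and a smaller one in all cells cannot be told apart.

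Translation factors, which act with the ribosome, had called members near the share over all genes tested. That share was 3.7%, with 2.84% higher and 0.864% lower. Of 35 initiation and elongation factors 0 were called higher by edgeR and 2 lower, with a median of -0.04. The 2 were Eif4g2, at 539, 531 and 509 CPM after the cold-active protease against 603, 575 and 644 CPM after 3 min of trypsin (log2 -0.20), and Eif3a (log2 -0.36), a scaffold of initiation factor 3. The Eif4g2 call was lost without cold-active protease replicate 2 or 3 or 3 min replicate 1 or 3 (adjusted p = 0.0569 to 0.269), and that of Eif3a without cold-active protease replicate 1 or 2 or 3 min replicate 2 or 3 (adjusted p = 0.0639 to 0.26). The proteasome, another large complex of abundant proteins, had 1 of 31 members called, Psmd1 (log2 0.30), and a median of -0.01. The Psmd1 call was lost without cold-active protease replicate 1 or 3 min replicate 2 (adjusted p = 0.139 and 0.26). By the 1 annotated isoform used per gene, both lists hold mostly longer mRNAs. Over 800 nt were 32 of 35 translation factors and 29 of 31 proteasome members, against 32 of 81 ribosomal proteins. Among these longer members the medians were -0.04, -0.04 and 0.16 in that order. Whether the ribosomal proteins differ from both lists apart from mRNA length was not tested.

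Nuclear genes for the respiratory chain, which carries electrons to oxygen and makes ATP in mitochondria, were also higher. Of 79 tested, 44 were called higher and 1 lower, with a median of 0.36. Complex I, the NADH dehydrogenase, had 23 of 36 higher and 0 lower (median 0.46). Complexes II to V had 21 of 43 higher and 1 lower (median 0.30). Cox6c, a subunit of cytochrome c oxidase, had 349, 384 and 361 CPM after the cold-active protease, against 184, 184 and 196 CPM after 3 min of trypsin. Control libraries had 307 to 350 CPM, and the libraries of both harvests did not overlap. The log2 fold change of Cox6c was 0.96 ± 0.07 (edgeR adjusted p = 2.97e-15).

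Uqcrq, a small subunit of complex III, had 350, 350 and 329 CPM after the cold-active protease, against 171, 167 and 210 CPM after 3 min of trypsin (log2 0.92 ± 0.07). Ndufa6 of complex I had 323, 297 and 303 CPM after the cold-active protease, against 160, 174 and 175 CPM after 3 min of trypsin (log2 0.86 ± 0.07). In both genes the groups were far apart and control lay beside the cold-active protease. Ndufs5 was a weak case at 16.8, 19.4 and 18.9 CPM after the cold-active protease against 8.24, 8.74 and 14.1 CPM after 3 min of trypsin (log2 0.85 ± 0.25, edgeR adjusted p = 0.0389). Its call was lost when any library other than 3 min replicate 3 was left out (adjusted p = 0.0542 to 0.231), with DESeq2 and with 3 other settings. Sdhd, which anchors succinate dehydrogenase in the inner membrane, went the other way, with means of 83.1 CPM after the cold-active protease and 125.8 CPM after 3 min of trypsin (log2 -0.62 ± 0.12, edgeR adjusted p = 0.000146). Its partners Sdha and Sdhc had log2 values of -0.04 and -0.21 and were not called.

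The other nuclear genes of mitochondria showed a smaller difference. Of 54 genes of the mitochondrial ribosome and of protein import, 15 were higher and 0 lower (median 0.25). Timm8b, a chaperone of the intermembrane space, had 49.0, 41.2 and 40.2 CPM after the cold-active protease, against 24.7, 24.0 and 17.4 CPM after 3 min of trypsin (log2 0.97 ± 0.17, edgeR adjusted p = 3.59e-05). Control libraries had 52.3 to 57.5 CPM. Mrpl33 and Mrpl54 of the large mitochondrial subunit rose by 0.77 and 0.68 on the log2 scale. Transcripts made inside mitochondria did not share this. Of 11 genes of the mitochondrial genome 1 was called higher, mt-Co1 (log2 0.26), and 2 lower, mt-Nd1 and mt-Nd4 (both -0.17), with a median of -0.09. The mt-Nd1 and mt-Nd4 calls were lost without cold-active protease replicate 2 or 3 min replicate 3 (adjusted p = 0.0528 to 0.0574). Cs, citrate synthase of the mitochondrial matrix, was lower at 545, 512 and 538 CPM after the cold-active protease against 638, 618 and 652 CPM after 3 min of trypsin (log2 -0.26 ± 0.06, edgeR adjusted p = 0.00141). Cs was chosen after its values were seen.

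**Figure D2:**
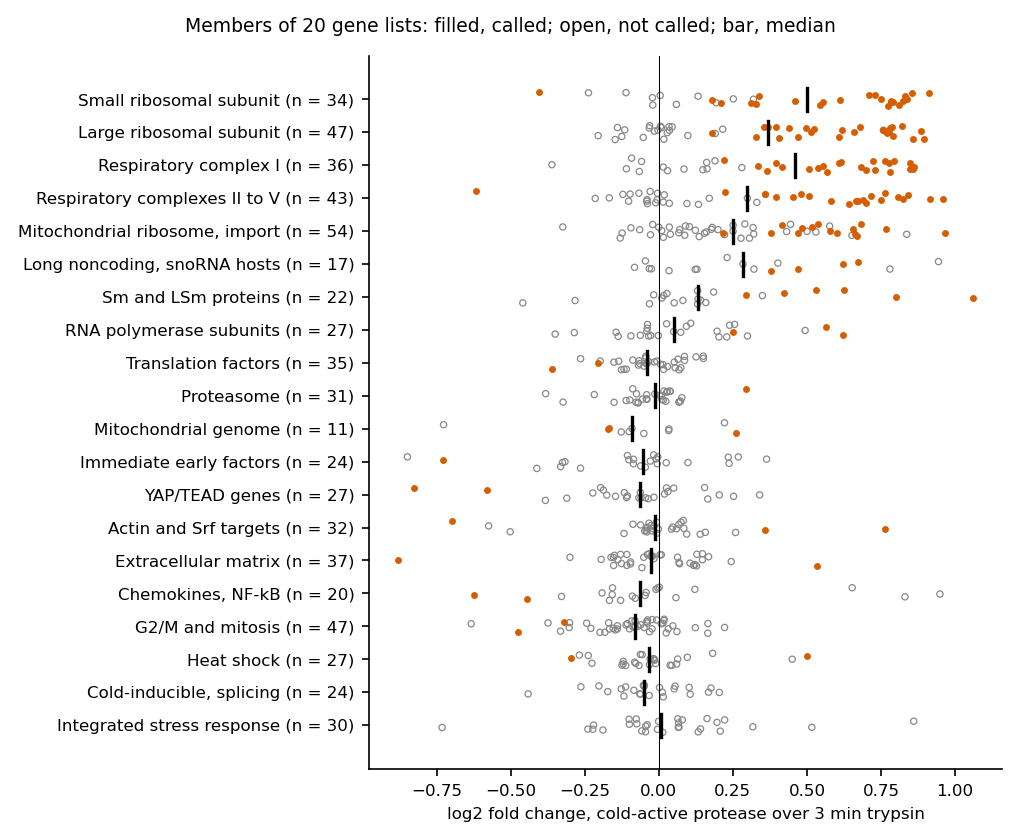
Log2 fold change of the cold-active protease over 3 min of trypsin for each tested member of 20 gene lists, with called members filled, other members open and the list median as a bar. The ribosomal and respiratory chain lists have medians of 0.30 to 0.50, and the lists of regulated and stress genes lie around 0 with single called members.

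The plot of 20 gene lists shows that members of the ribosomal and respiratory lists ran from near 0 to above 0.8, while most members of the other lists lay near 0. Smaller lists of compact protein complexes had fewer called members. Of 22 Sm and LSm proteins, which ring the spliceosomal RNAs, 6 were higher and 0 lower (median 0.13). Snrpd2 had 90.1, 105 and 92.4 CPM after the cold-active protease, against 44.2, 43.2 and 51.6 CPM after 3 min of trypsin (log2 1.06 ± 0.12, edgeR adjusted p = 2.95e-09), and Snrpe rose by 0.80. Of 27 RNA polymerase subunits 3 were called higher, Polr2i (0.62), Polr2f (0.56) and Polr2m (0.25). The Polr2m call was lost without cold-active protease replicate 1 or 3 or 3 min replicate 1 or 2 (adjusted p = 0.0527 to 0.0989). Most annotated principal isoforms of these 2 lists were over 800 nt, 16 of 22 for Sm and LSm proteins and 25 of 27 for RNA polymerase subunits.

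Among genes with a symbol of their own (no pseudogenes, Gm, Rik or clone names) and no overlap between groups, the 12 largest rises at 10 CPM or more were H2aj, Snrpd2, Psmg4, Anapc13, Tmem171, Timm8b, Cox6c, S100a4, Fmc1, Snhg20, Rpp21 and Uqcrq, with log2 fold changes of 0.92 to 1.20. H2aj, a variant of histone H2A, had 21.5, 26.4 and 37.9 CPM after the cold-active protease, against 14.7, 10.4 and 11.4 CPM after 3 min of trypsin. The groups did not overlap, but cold-active protease replicate 3 was well above the other two. Psmg4, a chaperone of proteasome assembly, had 95.7, 90.2 and 78.1 CPM after the cold-active protease, against 44.2, 44.8 and 39.5 CPM after 3 min of trypsin (log2 1.04 ± 0.12, edgeR adjusted p = 3.75e-09). Anapc13 belongs to the anaphase-promoting complex, Fmc1 helps to assemble ATP synthase, and Rpp21 is a subunit of ribonuclease P. Calls of 10 of these 12 genes held without each of the 6 libraries in turn. That of Fmc1 was lost without cold-active protease replicate 2 or 3 min replicate 2 (adjusted p = 0.0559 and 0.177). That of Snhg20 was lost without cold-active protease replicate 3 or 3 min replicate 1 or 3 (adjusted p = 0.0548 to 0.151).

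Several of the most abundant mRNAs of these cells were among the genes called higher, and the genes in this paragraph other than S100a4 and the thymosins were chosen after their values were seen. Lgals1, the secreted lectin galectin-1, had 12333, 12624 and 12818 CPM after the cold-active protease, against 7878, 7619 and 8258 CPM after 3 min of trypsin (log2 0.67 ± 0.04, edgeR adjusted p = 2.76e-18). S100a4, a calcium-binding protein, had 3171, 3081 and 3158 CPM after the cold-active protease, against 1684, 1514 and 1651 CPM after 3 min of trypsin (log2 0.96 ± 0.06). Control libraries of S100a4, at 2574 to 2751 CPM, lay between both groups. Of the 8 S100 genes tested 6 were called higher and 0 lower (median 0.73). All 8 have an mRNA of 800 nt or less. Of all coding genes of that length 37.8% were called higher, and 64.4% of those at 100 CPM or more. S100a10, which binds annexin A2, rose by 0.52, while Anxa2 itself, with a longer mRNA of 1447 nt, had a log2 value of -0.02 (not called). S100a16, at 103 to 117 CPM after the cold-active protease and 105 to 132 CPM after 3 min of trypsin, was not called. Tmsb10 and Tmsb4x, thymosins that bind free actin, rose by 0.76 and 0.36. Cstb, an inhibitor of cathepsins, and Dbi, which binds acyl-CoA, rose by 0.65 and 0.75. Elob, the adaptor elongin B, rose by 0.91. Actb, the cytoplasmic beta-actin, had 35132, 34842 and 35980 CPM after the cold-active protease against 31526, 31340 and 37164 CPM after 3 min of trypsin, with overlap, and was not called.

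Most coding genes called higher had short mRNAs by annotation. Lengths are those of 1 annotated isoform per gene, which need not be the one these cells express. Eif4g2, called lower, counts as short at 742 nt. Snrpd2, with a coding part of 354 nt, counts as long at 1420 nt. Of 267 protein-coding genes called higher, 164 (61.4%) had a principal mRNA of 800 nt or less, against 2 of 81 (2.47%) of those called lower and 4.47% of the coding genes tested. Of the 434 genes of this length tested, 164 (37.8%) were higher and 2 lower, and their median log2 fold change was 0.32. Above 800 and up to 1500 nt 59 of 1291 genes were higher and 13 lower (median 0.02). Above 3000 and up to 6000 nt 13 of 3466 genes were higher and 34 lower (median -0.03). mRNAs of 800 nt or less took 11.3% to 11.4% of all counts after the cold-active protease, against 8.52% to 8.67% after 3 min of trypsin and 11.4% to 11.6% in control.

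**Figure D3:**
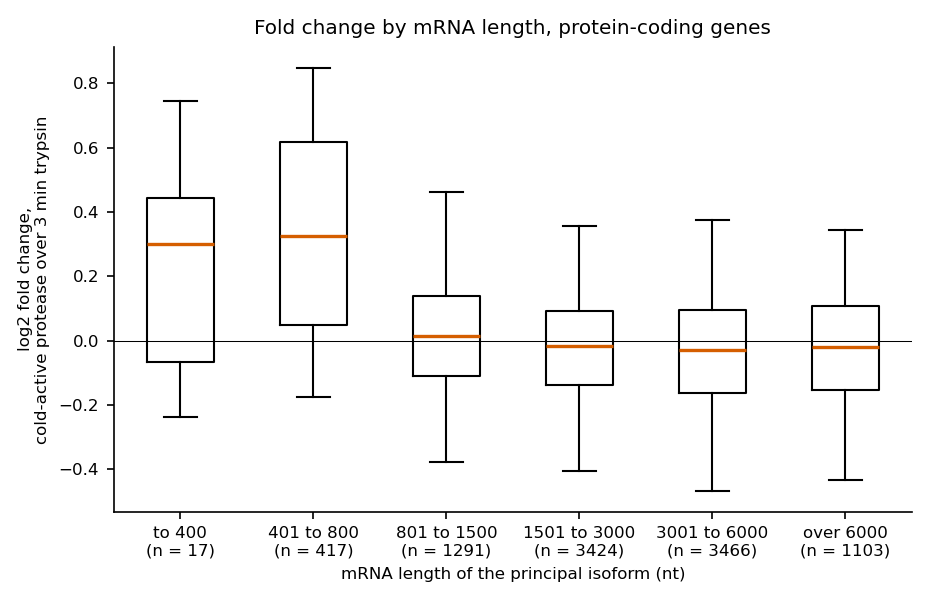
Log2 fold change of the cold-active protease over 3 min of trypsin by mRNA length of the principal isoform for protein-coding genes. Boxes show the median and quartiles and whiskers the 5th to 95th percentiles. The classes up to 800 nt have medians near 0.3 and all longer classes lie near 0.

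The plot of fold change by mRNA length shows a step at about 800 nt, with flat medians above it. Length and gene group moved together within the lists as well. The median was 0.66 for the 49 ribosomal proteins with an mRNA of at most 800 nt and 0.16 for the 32 longer ones. For the respiratory chain the medians were 0.58 (43 genes) and 0.02 (36 genes). Short mRNAs outside these lists and 3 others of small proteins had 83 of 309 members higher and 2 lower, with a median of 0.24. Among short mRNAs the share called higher was 64.4% at 100 CPM or more, 25.2% at 20 to 100 CPM and 3.09% below 20 CPM, with medians of 0.41, 0.28 and 0.19. In coding genes without near-identical copies 91 of 266 short mRNAs were higher (median 0.29). With the trend on length removed, 277 genes were called, 244 of them also called without that step. Of the ribosomal proteins called higher, 20 of 26 in the large and 19 of 23 in the small subunit stayed so. For the respiratory chain 15 of the 23 complex I members and 10 of the 21 of complexes II to V stayed called higher. Of the higher genes named here, Anapc13, Fmc1, Polr2i, Mt2, S100a1, Ndufs5 and Mylpf lost their calls then, with log2 values of 0.23 to 0.60. Of the lower ones Hspa8, Errfi1, Eif3a, Ing3, Loxl2, Gtf2e1, Acad8, Chrna1 and Hmgb2 lost theirs (adjusted p = 0.0508 to 0.127), while their log2 values moved by no more than 0.04. What part mRNA length, or a step of library making that depends on it, has in the ribosomal and respiratory difference was not tested.

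**Figure D4:**
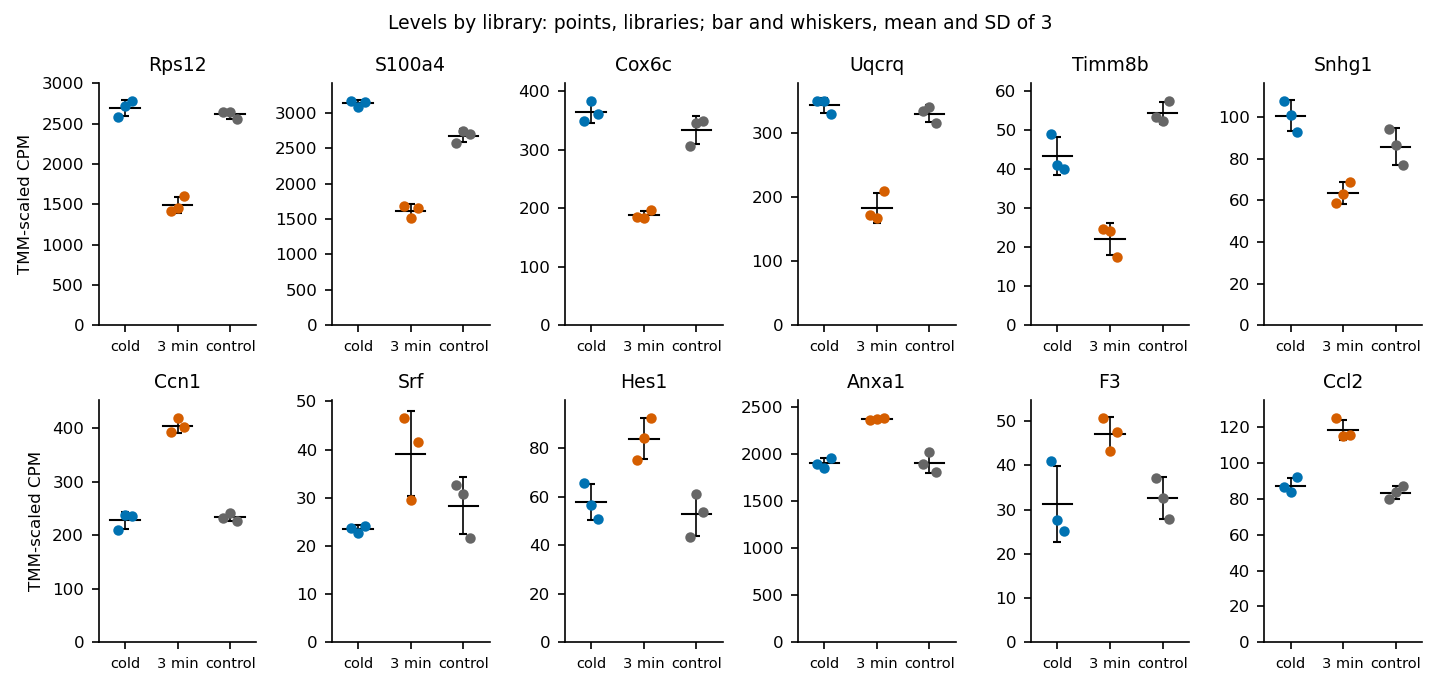
TMM-scaled CPM in each library (points) with mean and SD of 3 for 12 genes after the cold-active protease, after 3 min of trypsin and in control. In the upper row the 3 min libraries are the lowest, and in the lower row they are the highest or among the highest.

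The plot of 12 genes by library sets short mRNAs and the noncoding Snhg1, all higher after the cold-active protease, beside genes that were lower. The lists of YAP and TEAD, actin and Srf, immediate early, MAP kinase feedback, Notch and chemokine genes had 1 or 2 members lower each. Over all genes tested 0.864% were lower. Ccn1, a secreted matricellular protein and a target of YAP and Srf, had 210, 238 and 236 CPM after the cold-active protease, against 393, 419 and 402 CPM after 3 min of trypsin. Control libraries had 226 to 241 CPM, so the groups of the cold-active protease and control overlapped and the 3 min group stood apart. The log2 fold change was -0.83 ± 0.07 (edgeR adjusted p = 1.04e-14). Ccn2, its paralog, had 96.6, 93.1 and 111 CPM after the cold-active protease against 105, 101 and 108 CPM after 3 min of trypsin and was not called. Of 27 YAP and TEAD genes 0 were higher by edgeR and 2 lower, Ccn1 and F3, with a median of -0.06.

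F3, tissue factor, which starts the clotting cascade, had 41.1, 27.6 and 25.3 CPM after the cold-active protease and 50.6, 43.2 and 47.6 CPM after 3 min of trypsin (log2 -0.58 ± 0.16, edgeR adjusted p = 0.0212). The F3 call was lost without cold-active protease replicate 2 or 3 or 3 min replicate 1 or 3 (adjusted p = 0.074 to 0.189). Of 32 genes of actin and of Srf targets 2 were higher, the thymosins Tmsb10 and Tmsb4x, and 1 lower. That was Actg1, cytoplasmic gamma-actin, at 91.0, 83.6 and 81.5 CPM after the cold-active protease, against 134, 148 and 134 CPM after 3 min of trypsin and 61.1 to 86.0 CPM in control. Its log2 fold change was -0.70 ± 0.10 (edgeR adjusted p = 1.4e-06), and 6 near-identical copies make its count uncertain. Srf itself was lower, at 23.8, 22.6 and 24.1 CPM after the cold-active protease and 46.5, 29.5 and 41.5 CPM after 3 min of trypsin, with 21.7 to 32.7 CPM in control (log2 -0.73 ± 0.19, edgeR adjusted p = 0.0166). Its groups did not overlap, yet the call was lost without cold-active protease replicate 1 or 2 or 3 min replicate 1 or 3 (adjusted p = 0.0539 to 0.226).

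Srf binds the CArG box, and its sites near gene starts were looked up for 8 of the genes called lower, which were chosen after their values were seen (Ccn1, F3, Actg1, Srf, Errfi1, Hes1, Ptgs2 and Ccl2). RefSeq promoters on GRCm38.p6, from 250 bases before to 50 after each start, matched 6 of them, and 2 of these held a box. Of all 32851 promoters 535 (1.63%) held one. With genes picked this way, and genes counted on one side but promoters on the other, these shares cannot be compared. The box reads as the same motif on both strands. The stretches that held a box are shown, from chr11:120348556-120348605 (minus strand) and chr17:46556195-46556264 (minus strand), with the boxes in capitals. Whether Srf has a part in the lower Actg1 level was not tested.
Actg1: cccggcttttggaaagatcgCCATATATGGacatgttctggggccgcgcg
Srf: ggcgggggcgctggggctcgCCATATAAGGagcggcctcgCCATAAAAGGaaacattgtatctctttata
A match is a description of these letters and does not show binding in these cells. No box in this window says nothing of Srf at the other genes.

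The immediate early list as a whole showed little difference, with calls near the 3.7% over all genes tested. Of 24 tested, 0 were higher and 1, Srf, was lower (median -0.05). Egr1, a zinc finger factor induced by growth factors, had 96.6, 105 and 75.2 CPM after the cold-active protease against 96.6, 77.1 and 88.5 CPM after 3 min of trypsin. Junb, an AP-1 subunit, had 235, 239 and 235 CPM after the cold-active protease, 257, 235 and 272 CPM after 3 min of trypsin and 196 to 202 CPM in control. Neither was called, and their groups overlapped. Of 15 feedback genes of the MAP kinase cascade 1 was lower, Errfi1, an inhibitor of the EGF receptor, at 99.0, 91.0 and 108 CPM after the cold-active protease against 113, 140 and 126 CPM after 3 min of trypsin (log2 -0.36). That call was lost without cold-active protease replicate 1 or 2 or 3 min replicate 2 or 3 (adjusted p = 0.0782 to 0.333).

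Hes1, a repressor and direct target of Notch, was lower at 65.8, 56.8 and 51.1 CPM after the cold-active protease, against 75.4, 84.2 and 92.5 CPM after 3 min of trypsin and 43.6 to 61.1 CPM in control. The log2 fold change was -0.52 ± 0.12 (edgeR adjusted p = 0.00251), and the libraries of the cold-active protease overlapped those of control. The receptor Notch2 was higher at 266, 257 and 232 CPM after the cold-active protease against 204, 197 and 209 CPM after 3 min of trypsin (log2 0.31), and its call was lost without cold-active protease replicate 1 or 2 or 3 min replicate 2 (adjusted p = 0.065 to 0.11). These were 1 higher and 1 lower of 14 Notch genes (median -0.18).

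Of 20 chemokine and NF-kB genes 2 were lower and 0 higher (median -0.06). Ccl2, a chemokine for monocytes, had 86.4, 83.6 and 91.8 CPM after the cold-active protease, against 125, 115 and 115 CPM after 3 min of trypsin and 79.6 to 87.2 CPM in control (log2 -0.44 ± 0.10, edgeR adjusted p = 0.00121). Ptgs2, the inducible cyclooxygenase, was lower by a log2 value of -0.62, a call lost without cold-active protease replicate 1 or 2 or 3 min replicate 2 (adjusted p = 0.0689 to 0.214). Anxa1, annexin A1, which binds membrane phospholipid and was chosen after its values were seen, had 1894, 1848 and 1958 CPM after the cold-active protease, against 2361, 2370 and 2378 CPM after 3 min of trypsin and 1803 to 2022 CPM in control. Its 3 min libraries were tightly grouped above all others of these 3 groups (log2 -0.32 ± 0.04, edgeR adjusted p = 2.38e-07).

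Within the same limits as for the rises, the 12 largest falls at 10 CPM or more were Cep44, Rnaseh1, Loxl2, Ccn1, Trrap, Ing3, Srf, Mtcl1, Gtf2e1, Actg1, Casp8ap2 and Acad8, with log2 values of -1.09 to -0.68. Rnaseh1, which cuts RNA paired with DNA, had 8.61 to 15.9 CPM after the cold-active protease, against 27.1, 25.1 and 24.8 CPM after 3 min of trypsin and 11.2 to 15.1 CPM in control. Trrap and Ing3 belong to histone acetyltransferase complexes, Gtf2e1 to the general transcription factor TFIIE, and Casp8ap2 takes part in histone mRNA processing. Loxl2, a lysyl oxidase of the matrix, had 8.40, 15.6 and 13.8 CPM after the cold-active protease against 22.4, 21.3 and 26.8 CPM after 3 min of trypsin (log2 -0.88). Most of these genes have few counts. Only Ccn1 and Actg1 of the 12 stayed called without each of the 6 libraries in turn. Calls were lost for 8 of the 12 without cold-active protease replicate 1, 7 without replicate 2 and 2 without replicate 3, and for 4, 5 and 6 without 3 min replicates 1, 2 and 3. With DESeq2 the calls of Trrap, Ing3, Gtf2e1 and Acad8 were lost as well (adjusted p = 0.0595 to 0.0763). The Rnaseh1 call was lost without cold-active protease replicate 3 (adjusted p = 0.0656), and the Loxl2 call without any library other than cold-active protease replicate 2 (adjusted p = 0.0559 to 0.275).

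Matrix and adhesion genes had called members near the share over all genes tested (3.7%). Of 37 matrix genes 1 was higher and 1, Loxl2, was lower (median -0.03). Col12a1, a fibril-associated collagen, was the higher one, with 67.7, 67.5 and 74.0 CPM after the cold-active protease against 49.5, 47.0 and 47.6 CPM after 3 min of trypsin and 43.4 to 46.2 CPM in control (log2 0.53 ± 0.13, edgeR adjusted p = 0.00674). Here the cold-active protease libraries stood apart from these 2 groups, and Col12a1 was also called against control (log2 0.65, edgeR adjusted p = 0.0027). The level was not particular to the cold-active protease, with a mean of 69.8 CPM. Means of the other trypsin groups were 68.0 CPM with trypsin taken off at once, 59.4 CPM after 30 s and 85.0 CPM after 30 min. Of 26 adhesion receptors only the tetraspanin Cd151 was called, higher by 0.42. Tnc, the matrix glycoprotein tenascin-C, had 72.4, 57.7 and 62.0 CPM after the cold-active protease against 68.3, 84.7 and 83.1 CPM after 3 min of trypsin, with overlap and no call.

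Genes of the responses to cold and to stress gave few calls, near the 3.7% called over all genes tested. In lists of this size even 0 calls is near that share. Of 24 cold-inducible RNA-binding and splicing genes 0 were called by edgeR and 0 by DESeq2, with 3 at an unadjusted p under 0.05 (median -0.05). Cirbp and Rbm3, RNA-binding proteins that mammalian cells induce over hours of mild cooling, were not called. Cirbp had 48.1, 64.2 and 40.8 CPM after the cold-active protease against 52.4, 50.8 and 40.9 CPM after 3 min of trypsin. Rbm3 had 22.4, 16.9 and 18.9 CPM after the cold-active protease against 21.2, 29.5 and 28.1 CPM after 3 min of trypsin. Of 30 genes of the integrated stress response, which lowers translation and induces Atf4, 0 were called by edgeR and 0 by DESeq2, with 5 at an unadjusted p under 0.05. Atf4 had 522, 545 and 559 CPM after the cold-active protease against 504, 527 and 521 CPM after 3 min of trypsin (log2 0.07). Of 27 heat shock genes 1 was higher, the mitochondrial chaperonin Hspe1 with a short mRNA (log2 0.50), and 1 lower, Hspa8 (log2 -0.30). Hspa8, the constitutive cytosolic Hsp70, had 159, 147 and 138 CPM after the cold-active protease, 173, 179 and 196 CPM after 3 min of trypsin and 202 to 220 CPM in control. The Hspa8 call was lost without cold-active protease replicate 2 or 3 or 3 min replicate 2 or 3 (adjusted p = 0.0859 to 0.255), and with DESeq2 (adjusted p = 0.0532).

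Myoblast identity genes gave 1 call in 14 tested, the acetylcholine receptor subunit Chrna1 (log2 -0.28, edgeR adjusted p = 0.0464), and its call was lost without any library other than 3 min replicate 2 (adjusted p = 0.0668 to 0.297). Myod1, the myogenic master regulator, had 62.6, 60.9 and 65.4 CPM after the cold-active protease against 67.7, 62.8 and 56.3 CPM after 3 min of trypsin. Des had 971, 884 and 896 CPM after the cold-active protease against 915, 931 and 934 CPM after 3 min of trypsin. In both genes the groups overlapped.

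The largest fold change among genes of at least 10 CPM was at a nuclear copy of a mitochondrial gene, which the rule for naming genes passed over and which was chosen after its values were seen. Gm13340 is an unprocessed pseudogene at chr2:22588103-22589647 (minus strand, GRCm38), and its 1545 nt match mt-Co1, the mitochondrial gene of cytochrome c oxidase subunit 1, at 97.6% identity with 37 differences. The longest stretch without a difference is 148 nt. The 60 bases below differ at 4 positions, in capitals, and no stretch of this length holds more differences. They are from chr2:22589129-22589188 (minus strand) and chrM:5787-5846 (plus strand). Whether the reads counted cover this stretch cannot be told from the counts.
Gm13340: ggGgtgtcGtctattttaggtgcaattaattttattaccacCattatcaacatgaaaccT
mt-Co1: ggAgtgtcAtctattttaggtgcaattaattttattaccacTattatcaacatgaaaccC
Gm13340 had 1116, 1148 and 882 counts after the cold-active protease, against 16, 41 and 16 counts after 3 min of trypsin and 26, 12 and 24 counts in control. Scaled to library size these are 521, 473 and 506 CPM after the cold-active protease and 9.42, 22.4 and 10.7 CPM after 3 min of trypsin. All 3 libraries of the cold-active protease were high and none overlapped another group. The log2 fold change was 5.10 ± 0.16 (edgeR adjusted p = 2.34e-31). The other trypsin groups had 28.5 ± 11.9 CPM with trypsin taken off at once, 45.9 ± 8.4 CPM after 30 s and 205 ± 6.6 CPM after 30 min (SD, n = 3 each).

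mt-Co1 itself had 557, 550 and 487 CPM after the cold-active protease against 429, 491 and 411 CPM after 3 min of trypsin, with overlap (log2 0.26 ± 0.07, edgeR adjusted p = 0.00895). That call was lost without cold-active protease replicate 1 or 2 or 3 min replicate 1 or 3 (adjusted p = 0.06 to 0.095). The neighbouring nuclear copies on the same strand were lower. Gm13339, a copy of mt-Nd2, had 157, 125 and 107 CPM after the cold-active protease, against 259, 253 and 229 CPM after 3 min of trypsin (log2 -0.92 ± 0.11, edgeR adjusted p = 6.64e-09). Gm13341, a copy of mt-Co2, had 165, 157 and 148 CPM after the cold-active protease against 202, 207 and 198 CPM after 3 min of trypsin (log2 -0.37). The Gm13341 call was lost without cold-active protease replicate 3 or 3 min replicate 2 (adjusted p = 0.0507 and 0.0534). mt-Nd2 and mt-Co2 had log2 values of -0.05 and 0.03 and were not called. How the authors' counting placed reads that match both copies is not given in the sources used here, and whether the Gm13340 counts are its own RNA was not tested.

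**Figure D5:**
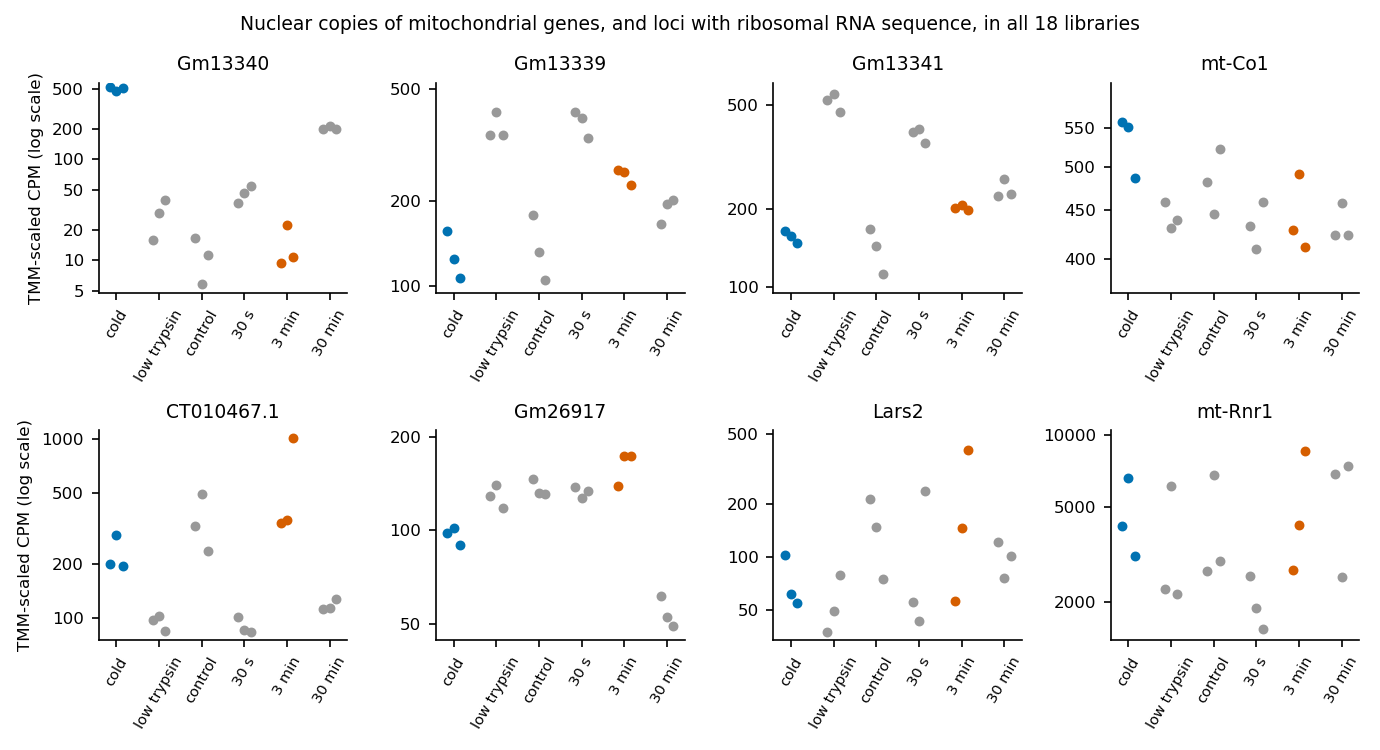
TMM-scaled CPM (log axes) in each of the 18 libraries for 3 nuclear copies of mitochondrial genes with mt-Co1, and for 3 genes at or near ribosomal RNA sequence with mt-Rnr1. Gm13340 lies at 473 to 521 CPM after the cold-active protease (blue) and at 9.42 to 22.4 CPM after 3 min of trypsin (orange).

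Of 5 genes at or near ribosomal RNA sequence, also chosen after their values were seen, 3 were lower. Mir6236, looked up with them, was not called (log2 0.26, edgeR adjusted p = 0.528). It was highest in 3 min replicate 3, at 178 CPM. Both mitochondrial ribosomal RNAs were not called in the main fit. CT010467.1, annotated as ribosomal RNA on chromosome 17, had 200, 292 and 196 CPM after the cold-active protease, against 338, 351 and 1019 CPM after 3 min of trypsin and 236 to 492 CPM in control (log2 -1.28 ± 0.20, edgeR adjusted p = 4.63e-06). The groups did not overlap, but 3 min replicate 3 alone held the highest value of all 18 libraries, and without it the log2 fold change was -0.57 (adjusted p = 0.0102). Gm26917, the neighbouring noncoding gene, had 98.0, 102 and 89.5 CPM after the cold-active protease, against 139, 173 and 173 CPM after 3 min of trypsin (log2 -0.74 ± 0.10). Lars2, the mitochondrial leucyl-tRNA synthetase, had 103, 61.8 and 54.5 CPM after the cold-active protease, against 56.5, 145 and 404 CPM after 3 min of trypsin, with overlap (log2 -1.42 ± 0.37, edgeR adjusted p = 0.0134). That value rested on 3 min replicate 3, without which the log2 value was -0.46 (adjusted p = 0.75), and the call was also lost without cold-active protease replicate 2 or 3 (0.114 and 0.0924) and with DESeq2 (0.419). mt-Rnr1, the small mitochondrial ribosomal RNA, had 4168, 6583 and 3102 CPM after the cold-active protease against 2720, 4207 and 8624 CPM after 3 min of trypsin and was not called. Its highest library was 3 min replicate 3 as well, as the plot of copies and ribosomal loci shows. mt-Rnr2, the large one, averaged 28817 CPM after the cold-active protease and 25377 CPM after 3 min of trypsin, with overlap and no call (log2 0.18, edgeR adjusted p = 0.388). Whether carry-over of ribosomal RNA into these libraries has a part in these values was not tested.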

How the data were processed

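RNA of 18 libraries was read with 15 and 45 cycles, per the labels' protocols. Per the submitters' processing notes the build was GRCm38, and the tools named include HISAT2 2.1.0, featureCounts 2.0.1, UMI-tools 1.0.1 and Trim Galore 0.6.6. Settings, the strand counted and the handling of reads with several matches are not given in the sources used here. Whole-number counts for 25957 genes were deposited by the authors and used unchanged. Further deposited tables were not used.

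The counts were fitted in edgeR 4.0.16 (R 4.3.3) with filterByExpr by group and TMM scaling, 1 fit for all 18 libraries and no covariate, and tested on simulated data. The common biological coefficient of variation was 6.08%. CPM is TMM-scaled. An exact permutation test of 3 against 3 libraries cannot go below 0.1. Libraries within a group differed by more than sampling noise (chi-square 1.64 to 2.56 per degree of freedom). Floors of 3 counts cover counting error only. DESeq2 1.42.0, other scalings and filters, a lot term, leaving out 1 library and removal of a loess trend on length (span 0.5) were alternatives.

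Lengths and positions came from GENCODE M21 (GRCm38; shortest principal isoform of the basic set). Near-identical copies had at least 95% identity over 100 nt and 30% of the shorter transcript (BLAST 2.17.0+). The members and the 39 gene lists were chosen with earlier results of these data known. Genes named were the 12 largest rises and falls among genes called, with 10 CPM or more in the higher group and no overlap, passing over pseudogenes and genes known by a Gm, Rik or clone name, up to 3 called members per list, and 19 genes named in any case. Genes outside this rule are said to be so, or belong to a count they illustrate.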

Additional observations from a re-analysis of the deposited data

How the results depend on the processing

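Called genes numbered 345 to 398 with the other scalings, filters and sets of libraries, against 373, and 277 with the length trend removed. DESeq2 called 307 (adjusted p not given for 2930 genes) and 50 lower, against 87. Leaving out 1 library gave 277 to 330 called, 230 to 275 higher and 43 to 71 lower, with 43, 47 and 55 lower without cold-active protease replicate 2 and 3 min replicates 2 and 3. For the cold-active protease against control it gave 35 to 54 called, 9 to 19 higher and 26 to 35 lower, against 67, 20 and 47. For 3 min of trypsin against control it gave 290 to 375 called, 50 to 99 higher and 240 to 276 lower, against 399, 102 and 297. There DESeq2 called 64 higher, and 172 were lower with the length trend removed. With the length trend removed, complex I had 15 and complexes II to V had 10 members higher, against 23 and 21. The large ribosomal subunit then had 20 and the small one 19 members higher, against 26 and 23. None of the 100 called genes looked up changed sign under any setting run, while 13 of 29 that were not called did, within log2 values of -0.51 to 0.43. Over all genes tested, same-numbered lots of both harvests did not deviate together from their group means (correlations 0.007, -0.015 and -0.004). A lot effect in part of the genes could go unseen there, so pairing is not excluded. With the lot number as a replicate block 365 genes were called, 363 of them shared. Depth limits genes of low level: a floor of 3 counts was 1.21 to 2.01 CPM. The alternatives on comparisons with control were added after seeing the data.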

Other observations

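Some further gene groups held called members, where 3.7% of all genes tested were called. Of 17 long noncoding and snoRNA host genes 4 were higher and 0 lower (median 0.28). Snhg1 had 108, 101 and 93.0 CPM after the cold-active protease, against 58.9, 62.8 and 69.0 CPM after 3 min of trypsin and 76.8 to 94.3 CPM in control (log2 0.67 ± 0.12, edgeR adjusted p = 6.09e-05). Zfas1 had 141, 141 and 164 CPM after the cold-active protease, against 92.5, 101 and 95.8 CPM after 3 min of trypsin (log2 0.62 ± 0.10), and was also called against control (log2 0.37, adjusted p = 0.04). Gas5, whose introns hold snoRNAs, rose by 0.38, a call lost without cold-active protease replicate 3 or 3 min replicate 1 (adjusted p = 0.219 and 0.12). Malat1, a nuclear noncoding RNA, had 280, 274 and 274 CPM after the cold-active protease against 259, 348 and 267 CPM after 3 min of trypsin and was not called.

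Of 21 Nrf2 and iron genes 3 were higher and 1 lower (median 0.03). Txn1, thioredoxin, had 1897, 1884 and 1882 CPM after the cold-active protease, against 1271, 1201 and 1232 CPM after 3 min of trypsin (log2 0.61 ± 0.05, edgeR adjusted p = 1.34e-15). The metallothioneins Mt1 and Mt2, which bind zinc and copper, rose by 0.58 and 0.56. Ftl1, the ferritin light chain, was lower, with means of 160.2 CPM after the cold-active protease, 215.5 CPM after 3 min of trypsin and 260.6 CPM in control (log2 -0.42), and 11 near-identical copies make its count uncertain. Of 47 G2/M and mitosis genes 0 were higher and 2 lower (median -0.08), Kif11, the spindle kinesin, at -0.48, and Hmgb2 at -0.32. The Kif11 call was lost without 3 min replicate 3 (adjusted p = 0.214), and that of Hmgb2 without cold-active protease replicate 1 or 2 or 3 min replicate 1 (adjusted p = 0.0881 to 0.392). Of 16 sarcomere genes, Mylpf, a fast myosin light chain, was called higher (log2 0.47), a call lost without any library other than 3 min replicate 3 (adjusted p = 0.0583 to 0.454), with a log2 value of 0.28 without 3 min replicate 1. In ER chaperones (22 tested), cholesterol synthesis (24), glycolysis (18), BMP and Id genes (17), FoxO targets (12) and p53 targets (19), edgeR and DESeq2 called 0 members, with medians of -0.06 to 0.05. At an unadjusted p under 0.05 there were 1, 4, 3, 5, 0 and 3 members in that order. In lists of this size 0 calls is near the 3.7% called over all genes tested.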
